A study of Mus musculus with 2 samples.

Results

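The genes of neutrophil primary and later granules were followed on a pair of microarrays, in 10 genes read by 12 probes out of 34786 genes or transcripts and 55680 probes. A probe was taken if its gene name, or the gene of its transcript accession, was one of these genes. The primary granule genes were Mpo, Elane, Prtn3 and Ctsg, read by 5 probes. The later granule genes were Ltf, Camp, Ngp, Lcn2, Mmp8 and Mmp9, read by 7 probes. The cells were LSK cells (Lineage-Sca-1+c-Kit+), a bone marrow fraction rich in blood stem cells and early progenitors. They came from C57BL/6 mice that were secondary recipients of a transplanted myelodysplastic syndrome (MDS). The MDS had the genotype Tet2KD/KD; Ezh2delta/delta on both arrays, so these alleles were shared by both groups. Ezh2 encodes a Polycomb histone methyltransferase, and Tet2 an enzyme that oxidises methylated cytosine. One group had received DAC (decitabine), a nucleoside that traps DNA methyltransferases once built into DNA, and the other phosphate-buffered saline (PBS). Both were collected at 10 weeks from transplantation, which was 7 weeks past treatment. With a single array for each group (n = 1), no difference has a replicate check and none was tested. How many mice stood behind an array, how much DAC they received, their age and whether cells of the host were sorted away are not given in the sources used here. In such bulk samples fewer cells of a type and less RNA per cell cannot be told apart.

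Neutrophils store their antimicrobial proteins in granules that are filled one after the other as the cell matures. Primary (azurophil) granules form first, in promyelocytes, and hold myeloperoxidase and serine proteases, whose mRNAs are already made in early granulocyte and monocyte progenitors. Secondary (specific) and gelatinase granules form later, in myelocytes and more mature cells, and their genes depend in mice on the transcription factor C/EBP epsilon, encoded by Cebpe. Set side by side, the 2 gene groups therefore read early and late granule programmes in a fraction sorted for the absence of mature lineage markers.

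The probes that the results rest on are shown first, because each gene but Mpo and Camp was read by 1 probe only. The probes are 60 bases long, and they are printed 5′ to 3′ with their mm9 positions. The Prtn3 probe (NM_011178) and the Ngp probe (NM_008694) span 817 and 549 bases of the genome, so each is split over a gap in the genome. For Elane (NM_015779) and Lcn2 (NM_008491) a stretch of 30 bases is given, and capitals in the Elane stretch mark AATAAA, the letters of a polyadenylation signal.
Prtn3, chr10:79343869-79344685: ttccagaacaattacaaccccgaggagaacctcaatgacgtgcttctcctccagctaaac
Ngp, chr9:110324266-110324814: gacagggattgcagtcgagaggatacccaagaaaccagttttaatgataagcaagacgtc
Ltf (NM_008522), chr9:110942873-110942932: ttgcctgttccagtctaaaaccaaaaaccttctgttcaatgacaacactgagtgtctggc
Elane, last 30 bases of the probe at chr10:79350902-79350961: ttactacAATAAAagcagcctttgttttgt
Lcn2, first 30 bases of the probe at chr2:32240199-32240258, minus strand: aaggagcatctggagcctcttcttatttgg
The Camp probes (NM_009921) overlap by 50 bases, of which 40 in a row are identical, and they differ at 2 overlapping bases (A16G and T20C, counted from the 5′ end of the brighter probe, with its base first). They are thus not independent readings. Whether a probe lies in coding or other exonic sequence is not given in the sources used here.

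Sequence upstream of the transcription start was available from RefSeq (GRCm38.p6) for 9 of the 10 genes, Mmp9 being without an entry. Each was read over the 250 bases before the start. The letters GAGGAAGT, a site of the myeloid transcription factor PU.1, were searched on both strands. They were found upstream of 3 of 4 primary granule genes (Mpo, Elane and Prtn3) and of 1 of 5 later ones (Mmp8), against 2.44% of 32851 promoters. Their core GGAAGT, which lies within them, was found upstream of all 4 primary genes and of Mmp8 alone among the later ones, against 19.7% of promoters. The letters TTNCNNAA (TTNNGNAA on the other strand), which many C/EBP sites match, were found in 0 of 4 primary genes and in 4 of 5 later ones (Ltf, Ngp, Lcn2 and Mmp8), against 36.8% of promoters. A match is a description of the letters and not a bound site, and the motifs were chosen after the sequences and values were seen. The promoters of the 4 genes past 2-fold and of Prtn3, the neighbour of Elane, are printed here, with capitals for GAGGAAGT in Elane and Prtn3 and for the C/EBP letters in Ltf, Ngp and Lcn2.
Elane, chr10:79886062-79886311, plus strand: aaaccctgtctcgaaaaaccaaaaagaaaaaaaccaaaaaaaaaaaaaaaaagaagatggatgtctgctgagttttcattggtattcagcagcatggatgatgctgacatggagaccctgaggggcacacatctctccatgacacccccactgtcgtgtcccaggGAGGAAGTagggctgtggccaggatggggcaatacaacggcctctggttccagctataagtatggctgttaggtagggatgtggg
Prtn3, chr10:79879417-79879666, plus strand: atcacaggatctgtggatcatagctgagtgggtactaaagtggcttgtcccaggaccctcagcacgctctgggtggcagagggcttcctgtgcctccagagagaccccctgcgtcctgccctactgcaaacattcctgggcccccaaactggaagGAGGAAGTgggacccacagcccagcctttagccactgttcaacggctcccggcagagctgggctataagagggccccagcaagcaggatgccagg
Ltf, chr9:111019042-111019291, plus strand: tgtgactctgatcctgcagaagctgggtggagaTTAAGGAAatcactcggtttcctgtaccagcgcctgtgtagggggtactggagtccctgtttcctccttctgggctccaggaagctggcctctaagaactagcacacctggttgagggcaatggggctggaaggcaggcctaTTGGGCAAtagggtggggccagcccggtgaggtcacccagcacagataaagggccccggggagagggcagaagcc
Ngp, chr9:110419558-110419807, plus strand: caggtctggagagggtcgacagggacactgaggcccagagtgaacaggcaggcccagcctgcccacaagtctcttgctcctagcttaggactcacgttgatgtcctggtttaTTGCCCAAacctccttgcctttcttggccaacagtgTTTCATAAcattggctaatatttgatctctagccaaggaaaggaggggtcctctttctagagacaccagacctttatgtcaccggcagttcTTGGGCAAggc
Lcn2, chr2:32387740-32387989, minus strand: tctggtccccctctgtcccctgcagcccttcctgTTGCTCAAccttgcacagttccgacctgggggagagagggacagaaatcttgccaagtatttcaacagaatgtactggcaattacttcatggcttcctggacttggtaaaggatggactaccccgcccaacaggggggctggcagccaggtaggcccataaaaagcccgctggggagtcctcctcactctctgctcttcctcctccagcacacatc

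The share of probes that the scanner software called well above background was 56.8% for DAC and 48.5% for PBS, with 0 saturated spots. Values are given as the processed intensity of the scanner software and as a log2 difference, DAC minus PBS, after each array was scaled to its 75th percentile. The DAC array was the brighter, with a 75th percentile over all spots of 217, against 143 for PBS. These were not the scaling values, which were percentiles over the 25404 probes called well above background on both arrays. After that scaling too, equal raw intensities stand for a negative difference. A gene was measured if both arrays gave its brightest probe that call, which held for 18211 genes, with a median difference of 0.02. On the DAC array 10.0% of them were higher by 2-fold or more, 6.84% were lower by as much, and 16.9% were past 2-fold in either direction. Which side held more genes depended on the scaling: 1824 were higher and 1245 lower here, but scaling over all probes gave 1329 and 1850, median centring 1435 and 1695, and spike-in scaling 1113 and 2343. The genes were also split by mean signal into a low, a middle and a high class of equal size. The shares past 2-fold were 14.1% higher and 8.55% lower in the low class, 13.2% and 8.81% in the middle class, and 2.65% and 3.15% in the high class. The SD of a difference expected from probes printed 10 times was 0.26 in the low, 0.14 in the middle and 0.09 in the high class, and it covers neither animals nor RNA preparation. It was taken after outlying spots had been left out, so it can be too small for a probe printed once. The scanner software's own errors of the 2 readings, combined, are a second measure and are given for Mpo and Elane. As a check of the sort, Kit and Ly6a (which encodes Sca-1) had intensities of 5080 and 1295 on the DAC array, against 3550 and 939 on the PBS array. Their differences were 0.12 and 0.07, and of 12 measured markers of stem cells and LSK cells 4 were past 2-fold higher and 0 lower.

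Among all 10 granule genes 8 were measured: 2 were past 2-fold higher on the DAC array (Elane and Ltf, against 10.0% of all measured genes), 2 were past 2-fold lower (Ngp and Lcn2, against 6.84%) and 4 lay within 2-fold. Each granule class held 1 of the higher genes, while both lower genes were of the later class.

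**Figure D1:**
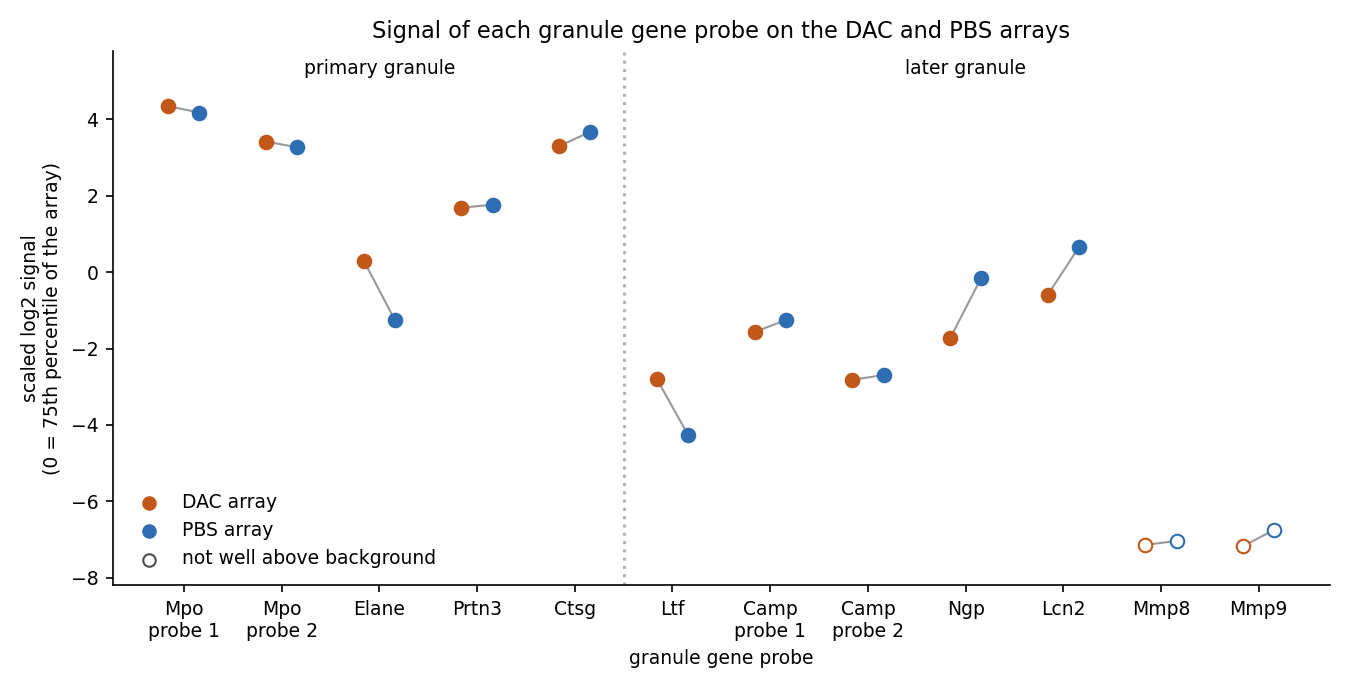
Scaled log2 signal of the 12 granule gene probes, with the DAC array to the left and the PBS array to the right of each pair; a line joins the 2 readings of a probe, and open circles were not well above background. Elane and Ltf stand higher on the DAC array, Ngp and Lcn2 lower, and Mmp8 and Mmp9 are open on both.

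Of the primary granule genes, 3 of 4 lay within 2-fold, and these were in the high class of signal on average over both arrays, while Elane was in the middle class. Mpo encodes myeloperoxidase, which makes hypochlorous acid from hydrogen peroxide and chloride. Its brighter probe (NM_010824, chromosome 11, 87617840 to 87617899, mm9) read 16548 under DAC and 11201 under PBS, a difference of 0.17. Its other probe (AY500847, chromosome 11, 87615121 to 87615180) read 8720 under DAC and 5970 under PBS, a difference of 0.15. The probes thus gave nearly the same difference, 1.93 and 1.74 times the SD of repeated spots. Both differences were smaller than the combined scanner error, 0.20 for each probe. Under the alternatives tried the sign of Mpo was not fixed, with values from −0.14 to 0.39.

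Elane encodes neutrophil elastase, the serine protease whose human gene is mutated in severe congenital and cyclic neutropenia. Its probe read 1005 on the DAC array, against 258 on the PBS array. This was a difference of 1.57, or 2.96-fold, and 11.3 times the SD of repeated spots at that signal. The combined scanner error was larger than that SD, at 0.21. Among all measured genes 96.1% had a lower difference, and Elane lies in the middle class of signal. Elane was past 2-fold under every alternative that could change its value, from 1.26 with spike-in scaling to 1.54 with loess.

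Prtn3 encodes proteinase 3, a close relative of elastase stored in the same granules. It read 2620 under DAC and 2107 under PBS, a difference of −0.08, within the SD of repeated spots. Prtn3 and Elane are adjacent genes in the GRCm38.p6 order and both carry the PU.1 letters shown above. Elane was 2.96-fold higher and Prtn3 within 1.06-fold, and any part of the letters or the position in this was not tested. Ctsg encodes cathepsin G, a chymotrypsin-like protease of the same granules (NM_007800, chromosome 14, 56718795 to 56718854, minus strand, mm9). Ctsg read 8031 under DAC and 7911 under PBS, a difference of −0.38, and genes in its class of signal, the high one, had a median of −0.13.

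Of the later granule genes, 4 of 6 were measured and they went both ways. Ltf encodes lactoferrin, an iron-binding protein that is a classic marker of secondary granules. It read 117 on the DAC array, against 32.2 on the PBS array, a difference of 1.47 or 2.76-fold. The PBS reading was close to the lowest intensity called well above background there, 20.3. The call rested on the background treatment: the unsubtracted mean intensities were 181 under DAC and 97.0 under PBS, and the difference was 0.55 with normexp correction and 0.54 with no background subtraction. Ltf lies in the low class of signal, where 14.1% of genes were past 2-fold higher.

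Ngp and Lcn2 were lower on the DAC array. Ngp encodes neutrophilic granule protein, a secondary granule protein of the cathelicidin-related family in mice. It read 244 on the DAC array, against 558 on the PBS array, a difference of −1.59 or 3.01-fold lower. Only 2.62% of measured genes had a lower difference, and Ngp lies in the middle class of signal. Lcn2 encodes lipocalin 2, which starves bacteria of iron by binding their siderophores. It read 539 on the DAC array, against 975 on the PBS array, a difference of −1.25 or 2.38-fold lower. Lcn2 lies in the high class of signal, where 3.15% of genes were lower by 2-fold or more and repeated spots had the smallest SD. Both stayed at least 2-fold lower under every alternative that could change their values, Ngp between −1.90 and −1.40 and Lcn2 between −1.56 and −1.13.

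Camp encodes the mouse cathelicidin, an antimicrobial peptide precursor of secondary granules. Its brighter probe (chromosome 9, 109749911 to 109749970, minus strand, mm9) read 275 under DAC and 259 under PBS, a difference of −0.31. Its other probe (chromosome 9, 109749901 to 109749950) read 115 under DAC and 95.6 under PBS, a difference of −0.13. Both were within 2-fold, and the second within the SD of repeated spots.

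Neither metalloproteinase gene was well above background. Mmp8 encodes neutrophil collagenase of secondary granules (NM_008611, chromosome 9, 7568238 to 7568297, mm9), and its spot read 5.77 under DAC and 4.70 under PBS. Mmp9 encodes gelatinase B, the namesake protein of gelatinase granules (NM_013599, chromosome 2, 164780620 to 164780679). Its probe was printed 10 times, and 9 spots were kept on each array. They read 4.44 to 7.96 with a median of 5.60 on the DAC array, and 4.04 to 13.6 with a median of 4.71 on the PBS array, and 0 of 9 were well above background on either. The spot left out for departing from the others read 15.7 under DAC and 48.8 under PBS. No fold is given for these genes.

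**Figure D2:**
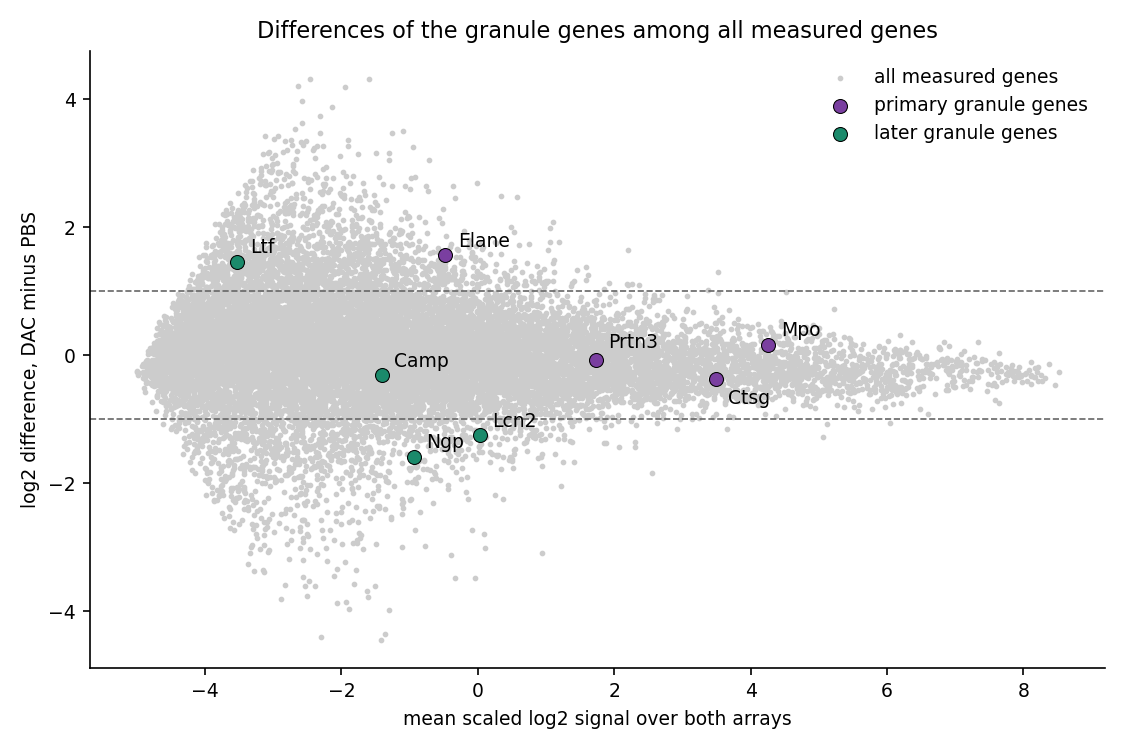
Log2 difference, DAC minus PBS, against the mean scaled log2 signal of the 18211 measured genes (grey), with the 8 measured granule genes in colour; dashed lines mark 2-fold. The spread of all genes narrows with signal, and Lcn2 lies below the lower dashed line while Prtn3, Mpo and Ctsg lie inside the cloud.

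Set against each other, the primary granule genes had a median difference of 0.04 (range −0.38 to 1.57, 4 genes) and the later ones a median of −0.78 (range −1.59 to 1.47, 4 of 6 genes), against 0.02 over all measured genes. The primary median had no settled sign, since it lay between −0.27 with spike-in scaling and 0.21 with quantile normalization, while the later median stayed negative under every alternative tried. The medians were 0.82 apart and the ranges overlapped. Elane lay above all 4 measured later genes and Ltf above 3 of 4 primary ones, while Ngp and Lcn2 lay below all 4 primary genes. Of the primary genes 2 had a positive and 2 a negative difference, and of the later ones 1 was positive and 3 negative. The genes are not replicates, so the gap has no p-value. A constant shift between arrays leaves the gap as it is, and it became 0.41 when Mmp8 and Mmp9 were let in at their background readings.

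**Figure D3:**
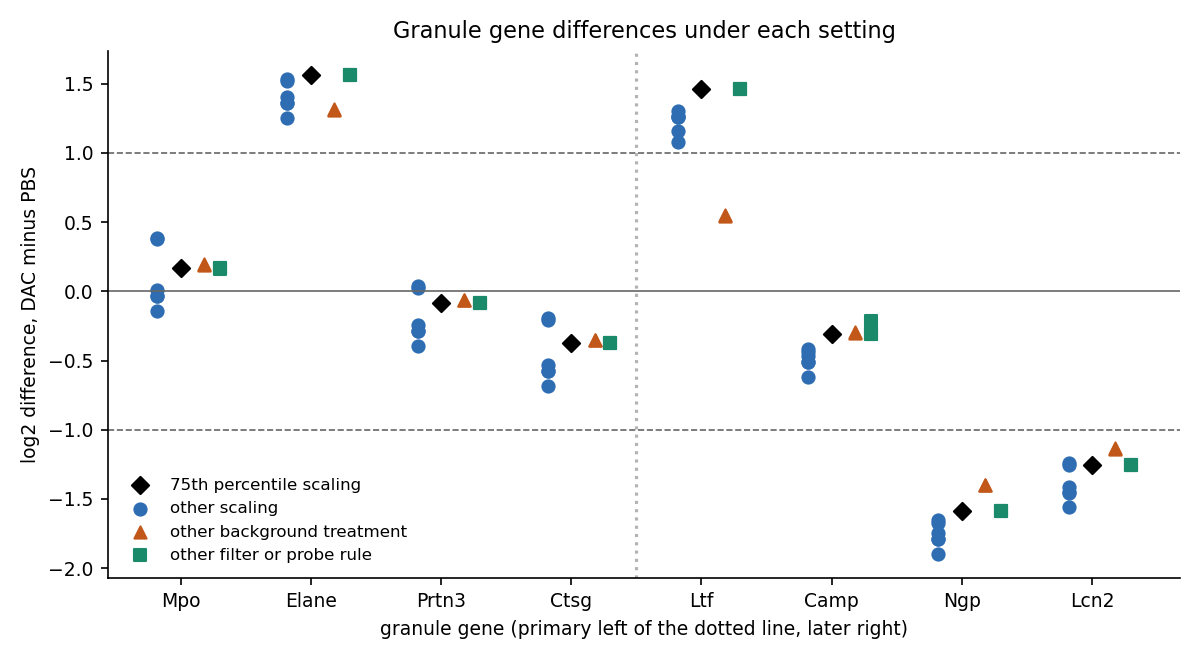
Log2 difference, DAC minus PBS, of each measured granule gene under 75th percentile scaling (diamonds) and under other scalings (circles), background treatments (triangles) and filters or probe rules (squares); dashed lines mark 2-fold. Elane, Ngp and Lcn2 stay outside 2-fold throughout, and Ltf comes inside under the other background treatments.

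Other genes of the granule pathway were read in 5 lists. Of 14 measured other primary granule genes 1 was past 2-fold higher on the DAC array, 0 lower and 13 within 2-fold, with a median of 0.09. As for the lists that follow, this count stands beside 10.0% of all measured genes higher and 6.84% lower, and 1 of 14 is no more than the first share gives. The higher one was Gaa, the lysosomal alpha-glucosidase gene, at 176 under DAC and 53.1 under PBS, with a difference of 1.34 and the same direction on both of its measured probes. Gaa lies in the low class of signal. Prss57, which encodes a further neutrophil serine protease, had a difference of −0.64. Ctsc, the dipeptidyl peptidase gene whose product activates the serine proteases, had one of 0.19. Neither lay past 2-fold. Bpi, whose product binds endotoxin, was well above background under DAC alone and at least 1.07-fold higher there.

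Of other specific and gelatinase granule genes only 7 of 17 on the array were measured, with 0 at least 2-fold higher, 1 lower and 6 within 2-fold. Their median was −0.71, beside −0.78 for the later granule genes above, and 5 of 7 had a negative difference. Among these 5, Itgam had that sign on only 1 of its 3 measured probes. The median is the value of Cd177, in the low class of signal at 38.4 under DAC and 47.6 under PBS. The lower one was Cybb, which encodes the membrane subunit of the phagocyte NADPH oxidase. It read 46.6 on the DAC array, against 198 on the PBS array, a difference of −2.49. Cybb lies in the low class of signal, and the lowest intensity called well above background on the DAC array was 22.5. Slc11a1, a metal transporter gene of gelatinase granules, was well above background under PBS alone and at least 3.09-fold lower under DAC. Lrg1 was well above background under DAC alone and at least 2.55-fold higher there.

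Inhibitors and processing enzymes of granule proteins had 7 of 15 members measured, all within 2-fold, with a median of −0.28 and 6 of 7 negative. Serpinb1a, which encodes an inhibitor of elastase, proteinase 3 and cathepsin G, read 4604 under DAC and 4583 under PBS, a difference of −0.39. Of the genes for these 3 proteases, Prtn3 (−0.08) and Ctsg (−0.38) had the sign of Serpinb1a and Elane (1.57) the opposite one. Any link between them was not tested.

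Among 17 measured granulopoiesis regulators and receptors 3 were at least 2-fold higher, 1 lower and 13 within 2-fold, beside 10.0% higher and 6.84% lower over all measured genes. Their median was 0.31, and 12 of 17 were positive. Cebpa, the C/EBP factor that starts granulocyte commitment, read 1699 on the DAC array, against 540 on the PBS array, a difference of 1.26. Cebpd read 96.8 on the DAC array, against 24.7 on the PBS array, a difference of 1.57. It lies in the low class of signal, with its PBS reading near 20.3, the lowest intensity called well above background there. Cebpe, needed for secondary granule genes, read 56.4 under DAC and 64.6 under PBS, a difference of −0.59. Cebpa and Cebpe thus had opposite signs, with Cebpe within 2-fold and in the low class of signal. Lef1 was 2.06-fold higher and Klf5 2.56-fold lower, both in the low class of signal. The repressor gene Gfi1 had a difference of 0.69, and the G-CSF receptor gene Csf3r one of −0.17 at 42613 under DAC and 36286 under PBS.

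Mature neutrophil genes had 17 of 21 members measured, with 1 at least 2-fold higher, 2 lower and 14 within 2-fold, beside 10.0% higher and 6.84% lower over all measured genes. Their median was −0.01. Padi4, whose enzyme citrullinates histones in neutrophil extracellular traps, read 227 on the DAC array, against 55.0 on the PBS array, a difference of 1.65 with the same sign on both of its probes. Padi4 lies in the low class of signal. The lectin receptor genes Clec4d and Clec4e were lower, with differences of −1.83 and −1.87, and Clec4e lies in the low class of signal. S100a8 and S100a9, which encode the subunits of calprotectin, had differences of −0.50 and −0.01. Retnlg was well above background under DAC alone and at least 2.06-fold higher there.

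**Figure D4:**
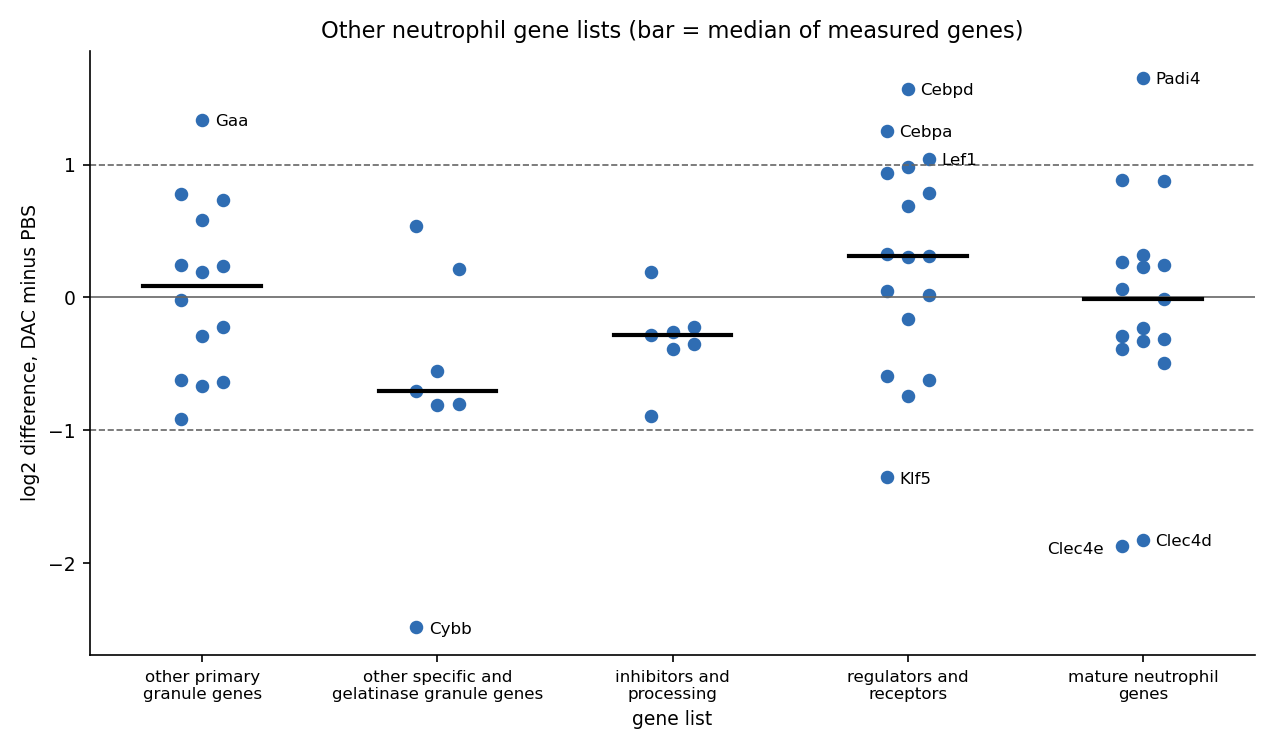
Log2 difference, DAC minus PBS, of the measured genes of 5 other neutrophil lists; each point is a gene, bars are medians, dashed lines mark 2-fold and names are given past it. The list of other specific and gelatinase granule genes has the lowest of the 5 medians, and the regulators and receptors the highest.

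Several granule genes sit beside relatives of their own family, which were looked at after their values were seen. Up to 3 protein-coding genes on each side were read, in the GRCm38.p6 order. Mpo lies near the peroxidase genes Lpo and Epx. Lpo, the lactoperoxidase gene, had a difference of −0.02, and Epx, the eosinophil peroxidase gene, one of 1.20 at 82.1 under DAC and 27.1 under PBS. Beside Prtn3 and Elane, Plppr3 had a difference of 1.47, at 1960 under DAC and 537 under PBS, Ptbp1 one of 0.46 and Med16 one of −0.23. Plppr3, Prtn3 and Elane are consecutive protein-coding genes, and the outer genes of the 3 were higher while Prtn3 between them was not. Beside Ctsg, the mast cell protease genes Mcpt8 and Mcpt4 had differences of 0.37 and 0.35, and the granzyme genes Gzme, Gzmd and Gzmg were not measured on both arrays. Other neighbours past 2-fold were Cdc25a (1.33) and Map4 (3.42) beside Camp, Setd2 (1.26) beside Ngp, Ptges2 (−1.11) beside Lcn2 and Pcif1 (−1.53) beside Mmp9. Over all measured genes 16.9% were past 2-fold in either direction. The PBS readings of Map4 (21.8) and Epx (27.1) were near 20.3, the lowest intensity called well above background there. Ptges2 had the sign of Lcn2, and Setd2 the opposite sign to Ngp.

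Markers of other cells were read for the same arrays, and their part in the granule gene differences was not tested. The counts past 2-fold stand beside 10.0% of all measured genes higher and 6.84% lower. Calls under 1 treatment alone stand beside 56.8% of all probes called under DAC, 48.5% under PBS and 45.6% on both arrays. Calls under DAC alone were thus the more common kind over all probes. The summed signal of a list is the log2 of the sum of its measured genes' scaled signals. Ly6g, the defining surface marker of mouse neutrophils, read 67.5 under DAC and 49.0 under PBS, a difference of 0.07. The eosinophil list had 7 of 9 members measured, with 1 at least 2-fold higher and 2 lower, and its summed scaled signal was −0.08 for DAC and 1.69 for PBS, with 2 further members called well above background under PBS alone. Prg2, the eosinophil major basic protein gene, read 299 under DAC and 1502 under PBS, a difference of −2.73. It gave most of the list's summed intensity under PBS, which was 1994. Epx (1.20), Il5ra (0.04) and Ccr3 (0.01) were positive, and 4 members, Prg2 among them, were negative. The mast cell and basophil list had 8 of 13 members measured, 2 higher and 4 lower, with summed signals of 1.12 for DAC and 1.74 for PBS and 1 further member called under PBS alone. Of the measured members 4 had a positive and 4 a negative difference. Cpa3 was the brightest, at 739 under DAC and 1157 under PBS. Tpsab1, Ms4a2, Mcpt1 and Mcpt2 were not well above background on either array. The monocyte and macrophage list had 7 of 16 members measured, 0 higher and 2 lower, with sums of 3.00 for DAC and 2.95 for PBS. Csf1r gave most of the summed intensity, 4249 of 6518 under DAC and 3188 of 4774 under PBS. In this list 7 further members were called under DAC alone. For Ccr2, Vcam1, C1qa, C1qc and Cd14 the bounds were only 1.03-fold to 1.69-fold, for Lgals3 3.84-fold and for Adgre1 4.97-fold. The erythroid list had 7 of 10 members measured, 1 higher and 1 lower, with sums of 1.66 for DAC and 1.85 for PBS and 1 further member called under each treatment alone. The higher one was Car1, whose 2 measured probes differed in sign, and the lower one Gata1, read by 1 probe. The B cell list had 8 of 9 measured, 2 higher and 1 lower, with sums of 4.12 for DAC and 3.83 for PBS. Vpreb1 was its brightest member, with 6032 of a summed intensity of 14140 under DAC and 3971 of 8778 under PBS. The T and NK cell list had 4 of 11 measured (Cd3e, Cd4, Lck and Nkg7), all within 2-fold, with 2 further members called under each treatment alone. Its sums were 3.127 for DAC and 3.103 for PBS. Nkg7 gave most of the summed intensity, 5973 of 7108 under DAC and 4667 of 5310 under PBS. Cd3g, Cd8a and Cd2 were not well above background on either array.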

How the data were processed

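Total RNA of sorted LSK cells was labelled with Cy3 and hybridised to 1 Agilent array per group, per the labels' protocols. Spots were read by Agilent Feature Extraction 10.7.3.1 (protocol GE1_107_Sep09), with probe positions on mm9, per the file headers. In the deposited processed intensity the scanner software had removed background and spatial trend and put a surrogate where a spot did not exceed background, with no normalization between arrays. The deposited mean and local background intensities served the background alternatives, and the deposited spot calls (values of 0 or 1) served the filters. The deposited series matrix holds log2 values, each column with a median of 0. Its column difference had a slope of 1.00 and an offset of −0.60 against the log2 processed intensity over 55680 probes, so its scale and direction are settled and its baseline per probe is unknown.

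Spots called non-uniform or outlying were left out, and log2 values of a probe's other spots were averaged. From each array's log2 values their 75th percentile was subtracted, taken over the 25404 probes called well above background on both (45.6% of all). The brightest probe stood for a gene. Names came from accessions, symbols or synonyms in a GRCm38.p6 gene table (26761, 3819 and 639 probes) or from the files (24461). Python 3.11.15, R 4.3.3 and limma 3.58.1 were used, and the counting steps were tested on simulated data. With 1 array per group, genes were counted at 2-fold without a test. Precision across arrays is thus unknown, and the SD of repeated spots was smaller at higher signal. The granule genes and the other lists were chosen with earlier results of these data known. By rule, all granule genes were named, and from each other list the genes past 2-fold with all measured probes on 1 side, at most 3 each way, with 9 fixed genes. Genes read on 1 array only, neighbours and single markers of other cells were named after their values were seen. Their bound sets the brighter reading against the higher of the dim reading and the lowest scaled signal called well above background on that array.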

Additional observations from a re-analysis of the deposited data

How the results depend on the processing

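No paired analysis was possible because each group has 1 array, and for the same reason no array could be left out. No called granule gene changed sign under the 11 alternatives. Elane, Ngp and Lcn2 stayed past 2-fold in all of them and Ltf in 9 of 11, the exceptions being normexp correction and no background subtraction, which left 1 gene (Elane) at least 2-fold higher in place of 2. Those exceptions were the only alternatives in background treatment. For these genes, each read by 1 probe, the positive and significant call, no filter and the mean over measured probes could only return the main value. The series matrix values nearly repeated scaling over all probes (1.363 and 1.362 for Elane). The primary granule median of 0.04 became −0.16 with scaling over all probes and with the series matrix values, −0.12 with median centring, −0.27 with spike-in scaling, 0.21 with quantile normalization and 0.20 with loess. The later granule median of −0.78 became −0.98 with scaling over all probes and with the series matrix values, −0.94 with median centring, −1.09 with spike-in scaling and −0.37 with no filter, which lets in Mmp8 and Mmp9. The gap of 0.82 between them became 1.06 with quantile normalization, 1.03 with loess and 0.41 with no filter. Mpo turned negative in 3 alternatives (−0.04 with scaling over all probes and with the series matrix values, −0.14 with spike-in scaling) and Prtn3 positive in 2 (0.04 with quantile normalization, 0.03 with loess). Setting members found on 1 array at a bound altered nothing, as there were none.

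Over all measured genes, 1824 higher and 1245 lower at 2-fold became 1113 and 2343 with spike-in scaling, which rests on 1 of 10 spike-in probes, 722 and 752 with normexp correction, 717 and 735 with no background subtraction, 3665 and 2196 with the positive and significant call, and 5364 and 3038 with no filter. The share of higher genes among those past 2-fold was 59.4%, against 41.8% with scaling over all probes, 45.8% with median centring, 42.2% with quantile normalization, 49.8% with loess, 32.2% with spike-in scaling, 41.9% with the series matrix values, 49.0% with normexp correction 49.4% with no background subtraction, 63.8% with no filter and 62.5% with the positive and significant call. The all-gene median moved by −0.20 with scaling over all probes and with the series matrix values, −0.16 with median centring, −0.11 with quantile normalization and −0.31 with spike-in scaling. Among the granule genes, low signal over background limits Ltf, Mmp8 and Mmp9 most. Single genes of the other lists were not read under the alternatives.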
